A study of Mus musculus with 6 samples.

Results

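The genes described here are 10 regulators of mitochondrial number and shape, taken by name from the 46078 gene features counted in each of 6 libraries of mouse heart muscle cells. They are the coactivators Ppargc1a and Ppargc1b, the nuclear receptor Esrra, the mitochondrial DNA factor Tfam, the fusion proteins Mfn1, Mfn2 and Opa1, the fission protein Dnm1l, and the inner membrane scaffold proteins Phb2 and Immt. Acly-KD cells (n = 3) came from mice in which Acly, the gene of ATP citrate lyase, was knocked down in MyH6-Cas9 mice, a line in which the Myh6 promoter drives Cas9 in heart muscle cells. Control cells (n = 3) are labelled wildtype. By these labels the groups differ in mouse line and Cas9 as well as in Acly, and these cannot be told apart. All hearts were perfused to isolate the cells, and poly-A RNA was sequenced. Whether a library is a separate animal, the age of the mice and how the Acly guide was given are not stated in the sources used here, and the spread behind each p-value may therefore be technical.

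Heart muscle cells are packed with mitochondria, whose number is set by new synthesis and by removal, and whose shape is set by fusion and fission. The coactivators act with nuclear receptors such as the product of Esrra to switch on nuclear genes of the respiratory chain and Tfam. The product of Tfam packs mitochondrial DNA and helps to start its transcription. Mitofusins join outer membranes, Opa1 joins inner membranes and shapes cristae, and the dynamin encoded by Dnm1l is recruited to cut mitochondria. Immt is the core of the complex at crista junctions, and Phb2 builds prohibitin rings in the inner membrane.

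No member passed the test in either of 2 ways of reading the counts, with 5 tested as deposited and Phb2 alone as mRNA. Over everything tested, 0% of features passed as deposited and 0.413% of genes as mRNA. Read as mRNA, Phb2 had higher values in all 3 Acly-KD libraries than in all 3 controls, by a log2 fold change of 0.30. Groups were apart in this direction for 8.12% of all genes in that reading. At their own features, as deposited, 4 of the 5 members with enough reads for a fit had log2 fold changes below zero, the lowest being Ppargc1a at -1.16. One of the 4, Mfn1, lay at 0.04 when scaled to features free of opposite exons. The median was -0.29 over 715 tested features that, like Ppargc1a, have no exon opposite to them. Of these 715, 73.8% lay below zero, as did 54.4% of all 2952 features tested.

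The 2 readings are needed because the counts look swapped in strand. Nuclear features with exons opposite to those of another gene made up 18.0% of those matched to the annotation and held 91.9% of the nuclear counts. With a swap, the mRNA of a gene is counted in whatever feature lies opposite to its exons. Reads at the gene's own feature are then those placed on the other strand of that locus. Whether some of them stem from the gene's own mRNA was not tested. Libraries held 460222 to 799868 reads in features in Acly-KD and 271463 to 814765 in control, 2.81% to 3.07% of the uniquely aligned reads. The 10 members together took 87, 74 and 248 of these reads in Acly-KD replicates 1 to 3, against 70, 269 and 213 in controls 1 to 3. Acly itself had 0, 0 and 0 reads in Acly-KD replicates 1 to 3, against 1, 5 and 6 in controls 1 to 3, with no exon opposite to it. If the strand is swapped these reads lie on the strand opposite to Acly mRNA, and they do not check the knockdown. All 10 heart muscle markers were counted, as were all listed markers of endothelial cells, fibroblasts, and pericytes and smooth muscle. Of 5 atrial markers 1 (Sln), and of 7 immune markers 2 (Ptprc and Adgre1), were at 0 in every library. If the strand is swapped these reads too lie on the strand opposite to the mRNA, and a count of 0 does not show that a cell type was absent.

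In the annotation 4 of the 10 members have an exon opposite to theirs, and for 2 of these the opposite feature is in the count tables. Phb2 lies opposite to Gm15884, an antisense RNA gene, and Esrra opposite to Trmt112. Dnm1l lies opposite to Gm49521 and Immt opposite to Gm44771, over 243 and 185 bases, and neither of these features was counted. The other 6 members have no opposite exon. The mRNA of a member without a counted opposite feature cannot be read from these tables if the strand is swapped.

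**Figure D1:**
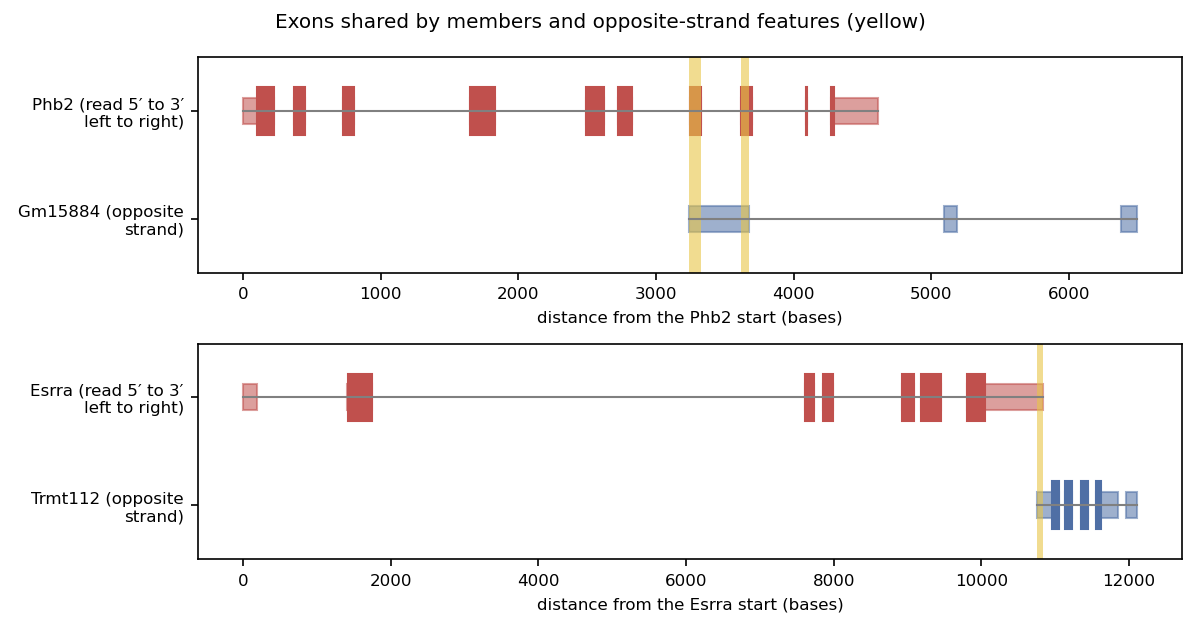
Exon maps of Phb2 with Gm15884 (top) and Esrra with Trmt112 (bottom), with the distance from the member's start in bases on the x axis. Tall boxes are coding exons, low boxes untranslated or noncoding ones, and yellow marks the shared bases, which lie in coding exons of Phb2 and at the end of Esrra.

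Phb2 gave the deepest reading of any member. It spans chromosome 6 from 124712336 to 124716950 (mm10, plus strand), and Gm15884 runs against it from 124715573 to 124718831. They share 141 exonic bases over all annotated Phb2 transcripts, and Phb2 holds 100% of the exonic overlap of Gm15884. In a coding Phb2 transcript of 10 exons, the shared stretches of 87 and 54 bases fall at exons 7 and 8. Of the 87 bases, 78 lie in exon 7 of this transcript and the rest beside it. These exons are shown because all counts given to Phb2 as mRNA were counted through them or through the rest of Gm15884. They are printed 5′ to 3′ on the Phb2 strand from the GENCODE M21 transcript, with bases shared with Gm15884 in capitals.
Phb2 exon 7, chr6:124715582-124715659: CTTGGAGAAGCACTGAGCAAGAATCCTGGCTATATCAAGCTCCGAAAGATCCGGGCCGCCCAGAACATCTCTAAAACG
Phb2 exon 8, chr6:124715954-124716030: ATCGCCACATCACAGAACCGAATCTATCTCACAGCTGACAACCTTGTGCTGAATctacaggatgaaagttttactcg
All 78 bases of exon 7 and the first 54 of the 77 bases of exon 8 are shared. The Gm15884 exon that covers them is 435 bases long and also spans the intron of Phb2 between them, so reads of unspliced Phb2 RNA fall in it too.

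Gm15884 received 1154, 615 and 1119 reads in Acly-KD replicates 1 to 3, against 334, 1071 and 854 in controls 1 to 3. Given to Phb2 and scaled among the 1453 genes tested in the reading of mRNA, these were 3223, 2803 and 2828 CPM (counts scaled to library size) in Acly-KD replicates 1 to 3, against 2376, 2487 and 2328 CPM in controls 1 to 3. The lowest Acly-KD library lay above the highest control. Phb2 averaged 2951 ± 235 CPM in Acly-KD and 2397 ± 81.3 CPM in control (SD, n = 3 each).

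The log2 fold change of Phb2 was 0.30 (SE 0.12, 95% interval 0.06 to 0.54). Its unadjusted p of 0.0182 became 0.40 after Benjamini-Hochberg adjustment over all 1453 genes, by edgeR's quasi-likelihood test. Phb2 did not pass at 0.05, where 0.413% of genes passed (0.206% higher and 0.206% lower), and 8.6% had an unadjusted p under 0.05. Groups that did not overlap were found for 14.7% of genes, with Acly-KD higher, as for Phb2, in 8.12% and lower in 6.61%. The median log2 fold change of all genes in this reading was 0.01. Over the alternatives the adjusted p ran from 0.233 to 0.829. As deposited, the same counts stood at 1557 ± 193 CPM in Acly-KD and 1237 ± 26.7 CPM in control for Gm15884, where the log2 fold change was 0.33 (SE 0.14) and edgeR's adjusted p = 0.717. Scaled to features free of opposite exons the value for Gm15884 was 0.74, and scaled to all uniquely aligned reads it was 0.22. Reads of Phb2 exons, of the intron between them, of other RNA opposite to Gm15884 and, were the strand not swapped, of Gm15884 itself cannot be told apart.

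At its own feature Phb2 had 1, 4 and 12 reads in Acly-KD replicates 1 to 3, against 3, 10 and 6 in controls 1 to 3. That is 0.699 reads for every 100 at Gm15884. The groups overlapped at 8.77 ± 6.79 CPM in Acly-KD and 10.5 ± 1.65 CPM in control (SD, n = 3 each), with p = 0.8 in a two-sided exact permutation test. The smallest p that 3 libraries against 3 allow is 0.1.

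**Figure D2:**
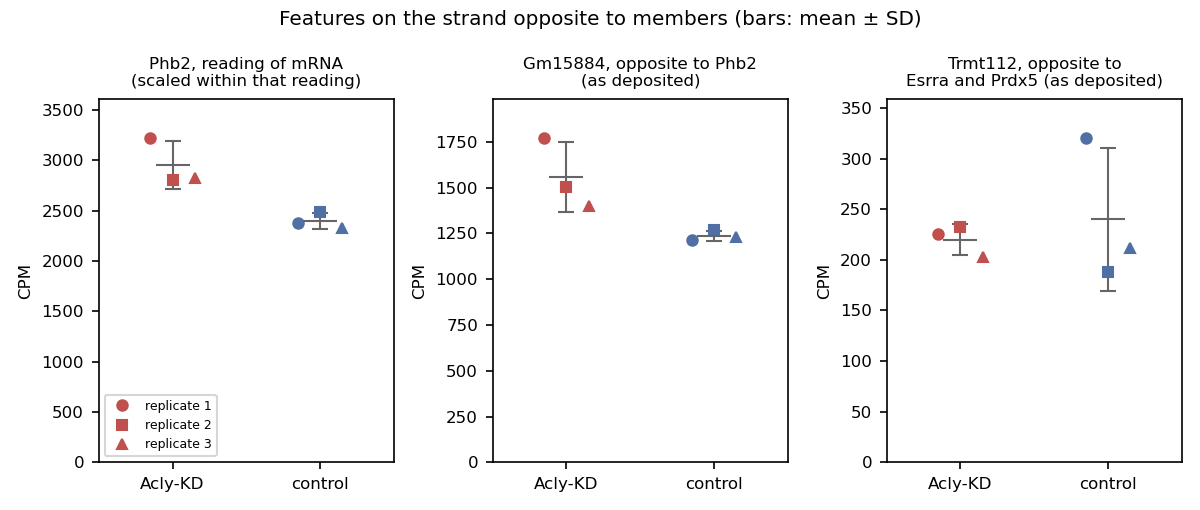
CPM of Phb2 in the reading of mRNA, and of Gm15884 and Trmt112 as deposited, on y axes that start at 0. Symbols are libraries and bars are the mean ± SD of 3. Phb2 and Gm15884 show the same reads, scaled within each reading, and Acly-KD lies above control without overlap in both. Groups were apart with Acly-KD higher for 8.12% of all genes as mRNA and 5.83% of all features as deposited. The groups overlap for Trmt112, where control replicate 1 is highest.

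Immt, the other inner membrane member (chromosome 6, 71831331 to 71877388), could be read only at its own feature. It had 14, 20 and 55 reads in Acly-KD replicates 1 to 3, against 12, 32 and 25 in controls 1 to 3, or 21.5, 48.8 and 68.7 CPM in Acly-KD and 43.7, 37.9 and 35.9 CPM in control. The Acly-KD libraries lay on both sides of the controls. It was the only tested member above zero, with a log2 fold change of 0.27 (SE 0.42, 95% interval -0.62 to 1.16, adjusted p = 0.965 in edgeR), and without Acly-KD replicate 3 the value was -0.14.

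Among the biogenesis factors, Ppargc1a (chromosome 5, 51454250 to 51567726) had the most reads at its own feature. It received 11, 14 and 62 reads in Acly-KD replicates 1 to 3, against 14, 91 and 89 in controls 1 to 3. In CPM, Acly-KD stood at 16.9, 34.2 and 77.5 and control at 51.0, 108 and 128. Acly-KD replicates 1 and 2 lay below every control, and Acly-KD replicate 3 lay above control replicate 1. No annotated exon lies opposite to Ppargc1a. If the strand is swapped, these reads lie on the strand opposite to Ppargc1a mRNA, whose level then cannot be read here. For any RNA in these whole preparations, fewer cells of a type and less RNA per cell cannot be told apart.

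Ppargc1a averaged 42.9 ± 31.2 CPM in Acly-KD and 95.5 ± 39.9 CPM in control (SD, n = 3 each). The log2 fold change was -1.16 (SE 0.50, 95% interval -2.28 to -0.04), and the unadjusted p of 0.0433 became 0.784 after adjustment over the 2952 features tested by edgeR. Of the 5 members tested as deposited, 0 passed the adjustment and 1, Ppargc1a, had an unadjusted p under 0.05, and DESeq2's test also passed 0. Over all features 0% passed and 6.1% had an unadjusted p under 0.05. The call turned on Acly-KD replicate 3: without it the log2 fold change was -1.98 (adjusted p = 0.0185 in edgeR). Leaving that library out raised calls throughout, to 23 features higher and 46 lower of 2998 tested. In that setting 536 had an unadjusted p under 0.05 by edgeR. Without Acly-KD replicate 1 the log2 fold change of Ppargc1a was -0.77 (adjusted p = 0.908 in edgeR). Its adjusted p over all alternatives ran from 0.0185 to 0.999.

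The related coactivator gene Ppargc1b had few reads, 4, 1 and 5 in Acly-KD replicates 1 to 3, against 3, 7 and 5 in controls 1 to 3. In CPM the groups did not overlap, at 4.94 ± 2.17 in Acly-KD and 8.80 ± 1.92 in control (SD, n = 3 each). It had too few reads for the fit, and a two-sided exact permutation test gave p = 0.1, the smallest possible. Ppargc1b was the only one of the 10 members whose own-feature groups were apart. Groups were apart for 0 of the 5 tested members, beside 11.4% of all features tested (5.83% with Acly-KD higher and 5.56% with Acly-KD lower). Features with as few reads as Ppargc1b are not in that share. Acly-KD replicate 2 and control replicate 1, with 1 and 3 reads, lay at or under what a count of 0 allows there (3 reads, or 7.33 and 10.9 CPM, for counting error only).

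Esrra (chromosome 19, 6910977 to 6921813) is the receptor that works with both coactivators. At its own feature it had 24, 15 and 34 reads in Acly-KD replicates 1 to 3, against 10, 46 and 38 in controls 1 to 3. The groups overlapped, at 38.7 ± 3.33 CPM in Acly-KD and 48.5 ± 10.5 CPM in control (SD, n = 3 each). The log2 fold change was -0.36 (SE 0.34, 95% interval -1.08 to 0.37, adjusted p = 0.959 in edgeR), and -0.03 when scaled to features free of opposite exons. In CPM, Acly-KD stood at 36.8, 36.6 and 42.5 and control at 36.4, 54.4 and 54.6, so that control replicate 1 lay with the Acly-KD libraries.

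The feature opposite to Esrra, Trmt112, encodes a partner protein of several methyltransferases. It shares 73 bases with the last Esrra exon, untranslated in both genes, but also 409 bases with Prdx5, a gene of a peroxiredoxin found in mitochondria, so that Esrra holds 15.1% of its overlap. Trmt112 had 147, 95 and 162 reads in Acly-KD replicates 1 to 3, against 88, 159 and 147 in controls 1 to 3. The groups overlapped, with a log2 fold change of -0.09 (SE 0.21, 95% interval -0.54 to 0.35, adjusted p = 0.965 in edgeR), and 0.27 when scaled to features free of opposite exons. These reads cannot be divided between Esrra and Prdx5, and the rule of the reading of mRNA gave them to Prdx5. Reads of Trmt112 mRNA in the shared 73 bases would in turn be counted at Esrra.

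Tfam (chromosome 10, 71225464 to 71238280) had 1, 0 and 3 reads in Acly-KD replicates 1 to 3, against 2, 8 and 0 in controls 1 to 3. Each group included a library at 0, and its level could not be compared at this depth (p = 0.4 in a two-sided exact permutation test of CPM).

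**Figure D3:**
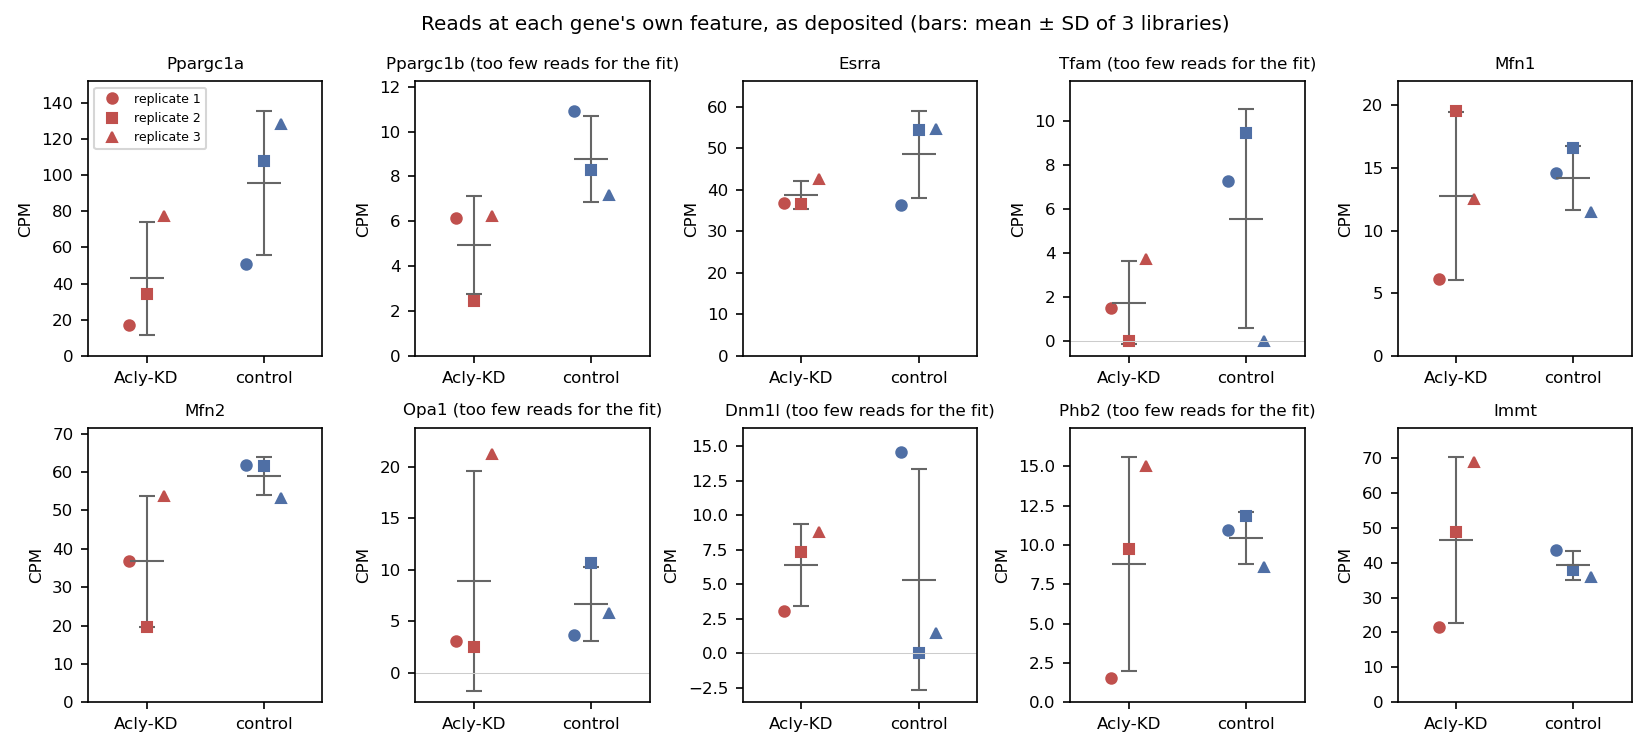
CPM at the own feature of each of the 10 members, as deposited, with symbols for libraries and bars for the mean ± SD of 3. Ppargc1a and Mfn2 have their lowest values in Acly-KD replicates 1 and 2, Immt, Opa1 and Phb2 have their highest value in Acly-KD replicate 3, and the groups are apart for Ppargc1b alone.

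The mitofusin genes differed in how many reads they had. Mfn2 (chromosome 4, 147873599 to 147904704) had 24, 8 and 43 reads in Acly-KD replicates 1 to 3, against 17, 52 and 37 in controls 1 to 3, or 36.8, 19.5 and 53.7 CPM in Acly-KD and 61.9, 61.5 and 53.2 CPM in control. Acly-KD replicates 1 and 2 lay below every control, and Acly-KD replicate 3 lay just above control replicate 3. The log2 fold change of Mfn2 was -0.62 (SE 0.37, 95% interval -1.42 to 0.17, adjusted p = 0.906 in edgeR). Without Acly-KD replicate 2 it was -0.35, and scaled to features free of opposite exons it was -0.34.

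Mfn1 (chromosome 3, 32529465 to 32579239) had 4, 8 and 10 reads in Acly-KD replicates 1 to 3, against 4, 14 and 8 in controls 1 to 3. Acly-KD replicates 1 and 2 were the lowest and the highest library in CPM, at 6.14 and 19.5, with the controls from 11.5 to 16.6. Its log2 fold change was -0.22 (SE 0.60, 95% interval -1.49 to 1.06, adjusted p = 0.967 in edgeR), and without Acly-KD replicate 1 it was 0.12. Scaled to features free of opposite exons, it was 0.04.

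Opa1 (chromosome 16, 29579334 to 29654884) had 2, 1 and 17 reads in Acly-KD replicates 1 to 3, against 1, 9 and 4 in controls 1 to 3. Acly-KD replicate 3, at 21.2 CPM, lay above all controls, and the others in its group lay below them (p = 1 in a two-sided exact permutation test). Dnm1l, the fission gene (chromosome 16, 16312230 to 16358959), had 2, 3 and 7 reads in Acly-KD replicates 1 to 3, against 4, 0 and 1 in controls 1 to 3. Its highest and lowest libraries were both controls, at 14.6 and 0 CPM (p = 0.8 in a two-sided exact permutation test).

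Per kilobase of exon, own-feature levels averaged over the 6 libraries put Ppargc1a first at 10.5 CPM per kilobase, then Esrra at 9.93, Mfn2 at 9.20, Immt at 3.77 and Phb2 at 2.59. Mfn1 at 2.20, Ppargc1b at 1.72, Dnm1l at 1.13, Opa1 at 0.991 and Tfam at 0.827 followed. The ranges over libraries overlapped for every pair of neighbours in this order, so no step in it exceeds the spread. These are levels of reads at the own features and were not taken as levels of mRNA.

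**Figure D4:**
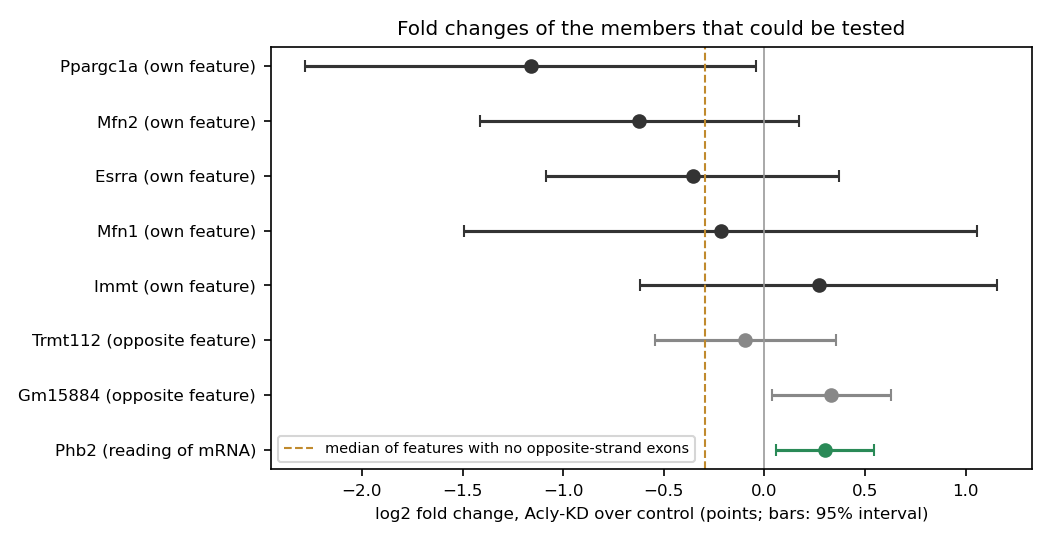
Log2 fold changes (Acly-KD over control, x axis) with 95% intervals for the members and opposite features tested. The dashed line is the median of 715 features with no opposite-strand exons, at -0.29. Intervals of Mfn1, Mfn2, Esrra, Immt and Trmt112 include zero.

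The own-feature values differed widely between the Acly-KD libraries. Summed over the 10 members they were 134, 181 and 310 CPM in Acly-KD replicates 1 to 3, against 255, 318 and 306 CPM in controls 1 to 3. In Acly-KD replicate 1, 7 of the 10 members lay below all controls and 0 above them. In Acly-KD replicate 2, 4 lay below (Ppargc1a, Ppargc1b, Mfn2 and Opa1) and 2 above (Mfn1 and Immt). In Acly-KD replicate 3 only Ppargc1b lay below, and Opa1, Phb2 and Immt lay above.

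The 715 tested nuclear features with no opposite-strand exons put the Acly-KD libraries in the same order. In Acly-KD replicates 1, 2 and 3, 66.2%, 43.6% and 15.2% of them lay below all controls. Above all controls lay 10.2%, 15.2% and 33.0% of them in the same 3 libraries. Their median (log2 of CPM plus 1, against the control mean) was -0.92, -0.33 and 0.22 in Acly-KD replicates 1 to 3 and -0.11 to 0.13 in the controls. The median of the 5 tested members was -0.83, -0.37 and -0.16 in Acly-KD replicates 1 to 3 and -0.12 to 0.19 in the controls. Over the groups, the median log2 fold change was -0.36 for the 5 members, -0.29 for these 715 features and -0.04 for all 2952 tested. Of the 715, 21 had a lower log2 fold change than Ppargc1a and 141 a lower one than Mfn2.

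Markers of heart muscle cells rose from Acly-KD replicate 1 to replicate 3, as did those of endothelial cells and of pericytes and smooth muscle. Fibroblast, immune and atrial markers did not keep this order. The 10 heart muscle markers summed to 4285, 8738 and 15429 CPM in Acly-KD replicates 1 to 3 and 11268 to 14514 CPM in the controls. Of their log2 fold changes 10 of 10 lay below zero, with 0 called by edgeR or DESeq2 and 0 at an unadjusted p under 0.05. Of all 2952 features tested 0% passed by edgeR, 6.1% had an unadjusted p under 0.05 and 54.4% lay below zero. Below zero lay 73.8% of the 715 with no opposite-strand exons. Endothelial markers (8 genes) summed to 24.6, 34.2 and 97.5 CPM in Acly-KD replicates 1 to 3 and 38.8 to 72.8 CPM in control. Those of pericytes and smooth muscle (7 genes) summed to 46.1, 112 and 125 CPM in Acly-KD replicates 1 to 3 and 91.0 to 106 CPM in control. Fibroblast markers (7 genes) summed to 16.9 to 26.9 CPM in Acly-KD and 12.9 to 26.0 CPM in control. Immune markers (7 genes, 2 at 0) summed to 75.7 to 97.5 CPM in Acly-KD and 87.4 to 122 CPM in control, and atrial markers (5 genes, 1 at 0) to 36.8 to 63.5 CPM in Acly-KD and 70.5 to 80.1 CPM in control. All are own-feature reads, and their part in the members' values was not tested.

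**Figure D5:**
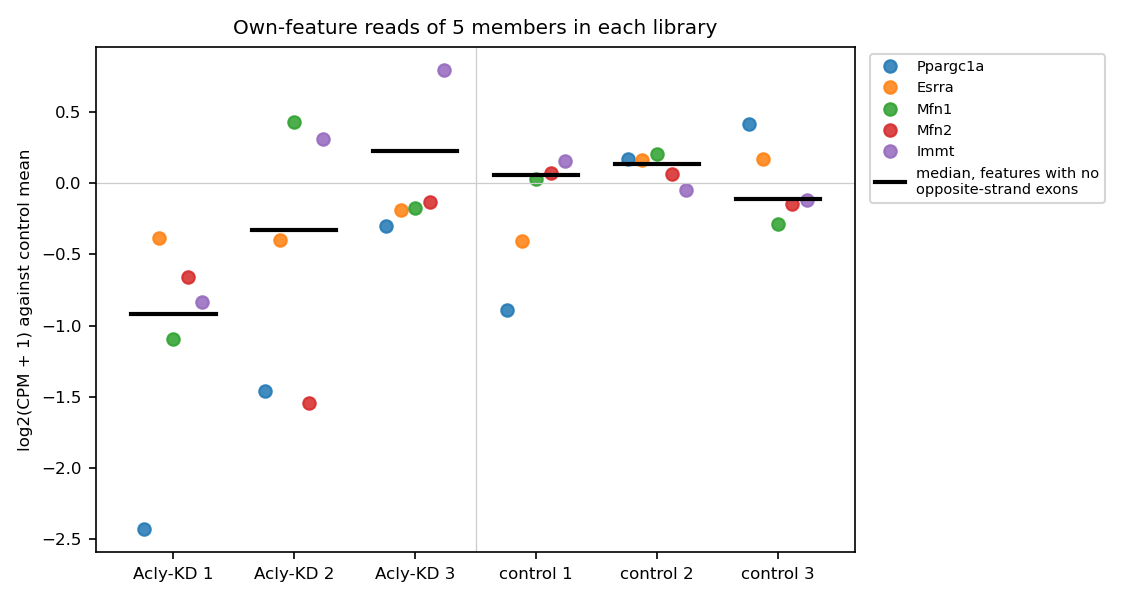
Own-feature level of the 5 tested members in each library, as log2 of CPM plus 1 against the control mean (y axis). Black bars are medians of 715 features with no opposite-strand exons, at -0.92, -0.33 and 0.22 in Acly-KD replicates 1 to 3. Ppargc1a lies below the bar in all 3 Acly-KD libraries and also in control replicate 1, at -0.89 against 0.06.

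Other genes of the same pathways were taken from 4 lists, which hold 79 counted genes beside the members. As deposited, 17 of them were tested, 0 passed in either direction by edgeR, 1 had an unadjusted p under 0.05, and 14 had log2 fold changes below zero (median -0.30). Over all 2952 features tested, 0% passed, 6.1% had an unadjusted p under 0.05 and 54.4% lay below zero. Of the 715 with no opposite-strand exons, 73.8% lay below zero. In the reading of mRNA 10 were tested, 0 passed and 1 had an unadjusted p under 0.05, beside 0.413% and 8.6% of all genes. In that reading 5 lay above and 5 below zero, with a median of 0.01. DESeq2 also passed 0 of these genes in either reading.

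In the list of biogenesis and mitochondrial DNA genes, 4 of 30 were tested as deposited and all 4 lay below zero. Gabpa, a transcription factor of respiratory chain genes, averaged 172 ± 77.7 CPM in Acly-KD and 280 ± 33.1 CPM in control (SD, n = 3 each). It had the unadjusted p under 0.05, with a log2 fold change of -0.69 (SE 0.26) and edgeR's adjusted p = 0.687. Its exons share 397 bases with Atp5j on the other strand, whose mRNA can be counted at Gabpa. For Lonp1, a matrix protease, and Perm1, a muscle partner of the coactivators, the log2 fold changes were -0.34 (SE 0.52) and -0.09 (SE 0.61). As mRNA 4 genes were tested, 3 above and 1 below zero. Polg, the mitochondrial DNA polymerase, was read through 921 bases of Fanci at 614 ± 78.3 CPM in Acly-KD and 645 ± 39.4 CPM in control, and its log2 fold change had a 95% interval of -0.37 to 0.26. The same intervals were -0.16 to 1.39 for Tfb1m, a mitochondrial ribosomal RNA methyltransferase read through Tiam2, and -0.79 to 1.15 for the deacetylase Sirt3, read through Psmd13.

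In the list of fusion, fission and transport genes, 3 of 25 were tested as deposited, and their log2 fold changes were 0.19 (SE 0.18) for Miga1, 0.03 (SE 0.58) for Trak2 and -0.04 (SE 0.21) for Dnm2. Miga1 encodes an outer membrane protein that promotes fusion, Trak2 an adaptor for mitochondrial transport and Dnm2 a dynamin, whose exons share 207 bases with Tmed1 on the other strand. As mRNA 2 genes were tested, both below zero. Stoml2, an inner membrane scaffold protein, was read through Gm26643 at 243 ± 23.7 CPM in Acly-KD and 268 ± 19.5 CPM in control, with an interval from -0.55 to 0.28. For Slc25a46, an outer membrane protein read through B930094E09Rik, the interval was -0.67 to 0.47.

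Of the inner membrane list 7 of 14 genes were tested as deposited, 6 of them below zero, with log2 fold changes of -0.54 (SE 0.73) for Chchd3 and -0.45 (SE 0.54) for Chchd10. Mtx1, of the outer membrane import machinery, was the only gene of this list tested as mRNA, through Gm43737, at 371 ± 14.5 CPM in Acly-KD and 353 ± 8.51 CPM in control, with an interval from -0.28 to 0.43. At its own feature it stood at -0.14 (SE 0.33).

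In the mitophagy list 3 of 10 genes were tested in each reading, with 3 below zero as deposited, and 1 above and 2 below as mRNA. The removal kinase Pink1 stood at -0.78 (SE 0.50), the receptor Sqstm1 at -0.28 (SE 0.39) and the receptor Optn at -0.45 (SE 0.58) as deposited. Read as mRNA through 73 bases of 4930551O13Rik, Optn averaged 895 ± 117 CPM in Acly-KD and 690 ± 32.2 CPM in control, with groups apart, as they were with Acly-KD higher for 8.12% of all genes in this reading. It had the unadjusted p under 0.05, at a log2 fold change of 0.37 (SE 0.15) with edgeR's adjusted p = 0.408. Fkbp8, an outer membrane receptor, read through Kxd1, had groups apart in the other direction, as 6.61% of all genes did, at 107 ± 54.3 CPM in Acly-KD and 157 ± 6.34 CPM in control (log2 fold change -0.57, SE 0.33, adjusted p = 0.634 in edgeR). For the receptor Bcl2l13, read through Bid, the interval was -0.41 to 0.31.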

How the data were processed

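Per the labels' protocols, stranded poly-A libraries were read from both ends. TopHat2, HTSeq, SAMtools, FastQC, DESeq2 and mm10 appear in the submitters' processing notes. The deposited values are the authors' counts of reads per gene, not normalized; the sources used here do not state the strand setting. Rows naming no gene, 97.4% to 97.7% of entries, stayed out of library sizes and tests. Features carry Ensembl identifiers, of which GENCODE M21 (same build) named 45143 of 46078.

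The members and lists were chosen with earlier results of these data known. Counts were tested with edgeR 4.0.16 (R 4.3.3, TMM, filterByExpr minimum count 10, robust quasi-likelihood, Benjamini-Hochberg at 0.05). In the reading of mRNA a nuclear feature's counts went to the gene that held 80% or more of its opposite exonic overlap, over 50 bases or more, where that gene's own total was smaller or not in the tables, giving 2973 genes and 140295 to 445228 reads per library. Members below the filter with at least 5 reads had exact permutation tests of CPM. CPM uses TMM within each reading, and 95% intervals use the test's t distribution. Named genes were all members, the features opposite to them and, in each list, the passing genes (up to 4) or else the 3 most abundant tested, and as deposited also the one with the smallest p. Prdx5 was named after its overlap was seen. The steps were tested on simulated data. Libraries of a group differed by a chi-square per degree of freedom of 3.43 to 10.1, more than counting noise, so none was counted as one library deposited more than once. Alternatives, DESeq2 1.42.0 among them, are given in the closing section.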

Additional observations from a re-analysis of the deposited data

How the results depend on the processing

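In the reading of mRNA the log2 fold change of Phb2 stayed between 0.22 and 0.35 under all 16 alternatives that could give it, and was not called in any of them. With 200 shared bases required, Phb2 was not measured. As deposited, Ppargc1a, Esrra and Mfn2 stayed below zero in all 16 alternatives, with Esrra between -0.45 and -0.03, nearest zero when scaled to features free of opposite exons, an alternative chosen after seeing the data. Gm15884 ran from 0.22 to 0.74. Mfn1 reversed to 0.0432 on this added scale, and ran from -0.57 to 0.12 with each library left out. Mfn1 was too low to be tested under the stricter filter and without control replicate 2. Immt ran from -0.14 to 0.64 with each library left out. Trmt112 reversed to 0.0068 with no filter and 0.27 on the added scale, and ran from -0.21 to 0.19 with each library left out. The number of members called was 0 throughout, apart from 1 (Ppargc1a) without Acly-KD replicate 3, so the leave-one-out range was 0 to 1 as deposited and 0 to 0 as mRNA.

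Over all features as deposited, calls were 0 higher and 0 lower, with 180 at an unadjusted p under 0.05 by edgeR and 0 calls by DESeq2. No filter gave 2 higher and 1 lower and the added scale 2 higher. Leaving out each library gave 0 to 23 higher and 0 to 46 lower, the most without Acly-KD replicate 3, where 2998 features were tested. As mRNA, 3 higher and 3 lower became 12 and 18 with no filter, 0 and 0 with a stricter filter (113 at an unadjusted p under 0.05), 0 and 0 with a term for the wrong-strand ratio (133), 0 higher when scaled to all uniquely aligned reads and 1 higher with 200 shared bases. Leaving out each library gave 0 to 8 higher and 1 to 12 lower. The cause was not tested. With the replicate number as a block, calls were 5 higher and 7 lower as mRNA and 0 and 0 as deposited, where same-numbered libraries had correlations of -0.06, -0.02 and -0.18, so the numbers were not taken as pairs. Of the members 5 had too few reads for a fit, and depth limits what can be said of them.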

Other observations

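Promoters of 9 of the 10 members (300 bases around a start, RefSeq, GRCm38.p6) were searched on both strands for 3 short motifs. The core CCGGAAG, bound by the factor that includes the product of Gabpa, was present in 5 of the 9 (Tfam, Mfn1, Dnm1l, Phb2 and Immt) and in 9.93% of the 27025 genes with a promoter. The motif GCGCANGCG, part of the site bound by the product of Nrf1, was present in 3 of the 9 (Esrra, Opa1 and Immt) and in 7.03% of all genes. It was shortened by 1 base after a longer form had been counted, which was present in 2 of the 9 (Opa1 and Immt) and in 5.19% of all genes. TNAAGGTCA, bound by the receptor family of Esrra, was present in 0 of the 9 and in 1.43% of all genes. No match of one motif overlapped a match of another in these 9 genes. Genes with more than one start had all their windows searched.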
